A study of Homo sapiens with 6 samples.

Results

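The LaminB1 regions of human chromosome 10 were taken as every row on that chromosome in the 4 deposited region lists, 1 list per LaminB1 library. There were 1947 such regions of 49022 in all. Control 1 held 451 of 10771 regions on chromosome 10 and control 2 held 555 of 13599. Double loss 1 held 493 of 12410 and double loss 2 held 448 of 12242. The cells were HCT116, an established human colorectal carcinoma line, in which both TOP2A alleles carry the auxin degron mAID. The control libraries came from the TOP2A mAID line without auxin according to the names of the deposited lists, while the labels give that group's genotype as wildtype. The double loss libraries came from TOP2A mAID/TOP2B -/- cells given 500 µM auxin for 8 h, which can remove up to 95% of TOP2A. All cells were held in G1 with 2 µM palbociclib, an inhibitor of cyclin D-dependent kinases, for 28 h. The double loss line was derived from the degron line with CRISPR/Cas9, and the labels do not say whether it is 1 clone, so auxin, the TOP2B deletion and the cell line cannot be told apart. Each group had 2 LaminB1 CUT&RUN libraries and 1 IgG library. Nothing in the labels says that the 2 libraries came from separate cultures, so no p-value can be read as covering the spread between cultures. The limma p-values below also draw on variance estimated over all windows, bins or genes tested.

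LaminB1 is a subunit of the nuclear lamina, the protein mesh under the inner nuclear membrane. CUT&RUN with an antibody to it releases DNA near the lamina, and long stretches enriched this way are known as lamina-associated domains. They are typically poor in genes and hold genes that are silent in the cell type studied. TOP2A and TOP2B are the type II topoisomerases, which pass one DNA duplex through a break in another and so remove supercoils and tangles. HCT116 is known as background to carry extra copies of part of the chromosome 10 long arm.

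Promoters that lay inside regions of only 1 group, or of all 4 lists, are shown first, to show how the base composition of such promoters varies. Each is the 300 bases from 250 before to 50 after the outermost annotated start, from RefSeq GRCh38.p14, read 5′ to 3′ on the gene's strand, with every CG dinucleotide in capitals. Of 734 protein-coding genes on chromosome 10, 650 had such an entry. The ADAM12 promoter (chr10:126388428-126388727, minus strand) lay in both control lists and in neither double loss list. Those of FAM24B (chr10:122879592-122879891, minus strand) and FAM24A (chr10:122910360-122910659, plus strand) were inside regions of the 2 double loss libraries and outside those of both controls. The promoter of SORCS1 (chr10:107164657-107164956, minus strand) lay in all 4 lists.
ADAM12: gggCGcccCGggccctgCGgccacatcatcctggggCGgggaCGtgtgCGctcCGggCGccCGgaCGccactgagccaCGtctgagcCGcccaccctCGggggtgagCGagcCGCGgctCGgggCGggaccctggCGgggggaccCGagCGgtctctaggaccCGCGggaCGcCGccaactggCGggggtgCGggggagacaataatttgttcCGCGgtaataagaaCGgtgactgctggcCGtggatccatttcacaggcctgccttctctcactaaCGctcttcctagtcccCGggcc
FAM24B: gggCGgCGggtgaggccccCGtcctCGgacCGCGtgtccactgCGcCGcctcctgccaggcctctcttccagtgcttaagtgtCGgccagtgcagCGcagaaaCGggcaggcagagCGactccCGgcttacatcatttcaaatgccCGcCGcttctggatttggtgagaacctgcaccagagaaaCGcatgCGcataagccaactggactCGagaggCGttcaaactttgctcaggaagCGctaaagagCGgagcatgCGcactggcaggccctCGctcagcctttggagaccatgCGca
FAM24A: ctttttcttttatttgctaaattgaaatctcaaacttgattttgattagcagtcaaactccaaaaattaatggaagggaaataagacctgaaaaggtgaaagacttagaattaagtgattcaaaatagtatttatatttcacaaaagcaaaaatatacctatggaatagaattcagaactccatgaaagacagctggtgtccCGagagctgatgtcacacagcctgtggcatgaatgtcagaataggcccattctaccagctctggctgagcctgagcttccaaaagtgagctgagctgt
SORCS1: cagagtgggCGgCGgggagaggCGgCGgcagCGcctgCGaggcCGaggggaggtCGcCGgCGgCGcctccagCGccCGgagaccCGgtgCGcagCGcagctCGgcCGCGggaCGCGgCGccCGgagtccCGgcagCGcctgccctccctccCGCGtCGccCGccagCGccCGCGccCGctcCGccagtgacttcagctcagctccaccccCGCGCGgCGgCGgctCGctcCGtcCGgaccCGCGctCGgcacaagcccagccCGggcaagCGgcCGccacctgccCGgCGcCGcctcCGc

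These 4 promoters span the base composition of the chromosome. SORCS1 held 52 CG dinucleotides and 82.3% G and C, and ADAM12 held 33 and 71.0%. FAM24B held 24 and 62.0%, while FAM24A held 1 CG and 37.3% G and C. The letters TATAAA, searched on both strands, were found in FAM24A and not in the other 3.

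Chromosome 10 promoters inside LaminB1 regions of all 4 lists were poorer in CG than those in no list. The 28 promoters in all 4 lists had a median of 51.7% G and C and 2.83 CG per 100 bases, and 8 of them (28.6%) held TATAAA. The 578 promoters in no list had a median of 64.0% and 7.67 CG per 100 bases, and 43 of them (7.44%) held TATAAA. Over all 15811 promoters of the table the share with TATAAA was 9.75%. The 7 promoters in both double loss lists only, of AKR1C1, AKR1C4, AKR1C8, CUZD1, FAM24A, FAM24B and SLC39A12, had a median of 41.0% G and C. The AKR1C promoters lie near each other, as do those of CUZD1, FAM24A and FAM24B, so the 7 are not separate observations. The 2 promoters in both control lists only, of ADAM12 and C10orf90, had 71.0% and 41.7%. Of 60 miRNA hairpins on the chromosome, 3 lay in all 4 lists (MIR6507, MIR6715A and MIR6715B), 51 in none and 0 in the lists of 1 group only.

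Chromosome 10 as a whole was covered to a similar extent in both groups. Regions covered 23.4% of it in control 1, 21.7% in control 2, 22.9% in double loss 1 and 22.8% in double loss 2, between 29.0 and 31.3 Mb. Both double loss values lay between the controls, and the difference of means was 0.34 points (exact permutation p = 1, two-sided). With 2 against 2 libraries the smallest p this test can give is 0.333. Over the other chromosomes the shares were 19.44% and 17.96% in the controls and 20.01% and 20.44% in double loss, where both double loss values were above both controls. The excess of chromosome 10 over the other chromosomes was 3.96 and 3.72 points in the controls and 2.94 and 2.36 in double loss, so it was smaller in both double loss libraries (exact permutation p = 0.333).

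The order of the groups differed along the chromosome. On the short arm side (the first 40 Mb) the covered share was 15.27% and 13.20% in the controls and 14.04% and 13.59% in double loss, and the groups overlapped. From there to 115 Mb it was 23.1% and 21.7% in the controls and 23.9% in each double loss library, above both controls (difference 1.51 points, exact permutation p = 0.333). It was 2.16 points without control 1, 0.85 without control 2 and 0.03 in the upper 50% of each list by log2 fold. On the distal long arm, the last 18.7 Mb reached by any region, it was 42.1% and 39.5% in the controls and 38.2% and 37.9% in double loss, below both controls. This difference of -2.74 points (exact permutation p = 0.333) was -1.43 without control 1, -4.05 without control 2 and -11.9 with an equal number of regions per list. The distal share minus the share of the rest was 21.8 and 20.7 points in the controls and 17.8 and 17.6 in double loss, lower by 3.58 points on average (exact permutation p = 0.333). This second difference was -1.98 points when the long arm was set apart from the rise in read density described next, a border chosen after seeing the data.

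Read density in the regions rose sharply near 98.3 Mb in all 4 lists. The last region before the rise ended between 95885000 and 98120000, and the first after it started between 98276001 and 98453001. Control library reads, those of the background library that each list is scored against, went from 6.58 to 9.67 per kb in control 1 and from 6.57 to 9.63 in control 2. In double loss 1 they went from 8.50 to 12.5 per kb, and double loss 2 gave the same values to this precision. The ratio of control library reads after to before was 1.47 in both control lists and 1.48 in both double loss lists. LaminB1 reads per kb rose by a smaller factor, 1.38, 1.37, 1.39 and 1.39 in the same order. The part of copy number in this rise was not tested.

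**Figure D1:**
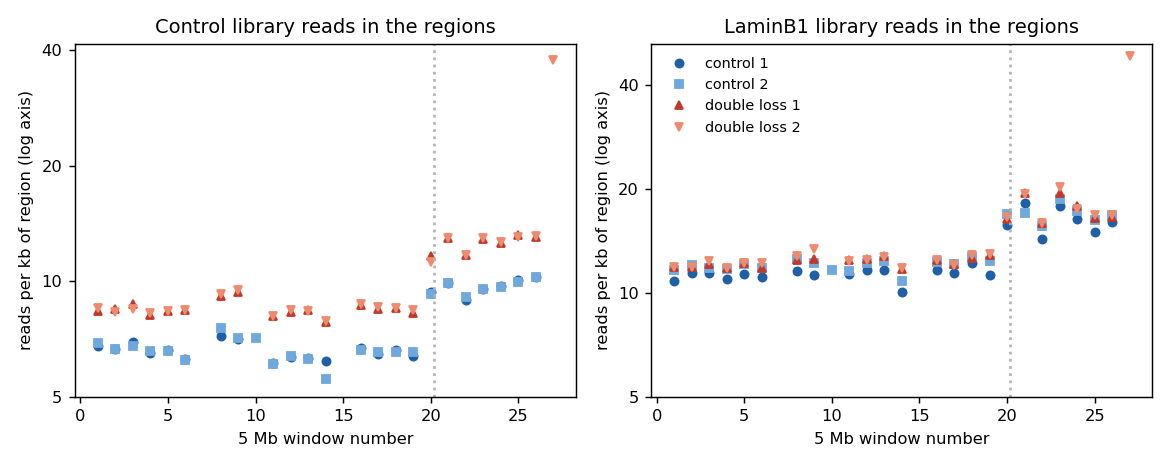
Reads per kb of region in each 5 Mb window of chromosome 10 (log axis), for the control library (left) and the LaminB1 library (right); each point is 1 list, and the dotted line marks where the rise lies within window 20. Control library reads per kb over all regions were 6.57 and 8.50 before it in control 2 and double loss 1, and 9.63 and 12.5 after it; the lone high point in window 27 is 1 narrow region of double loss 2.

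Region width differed at the same place. Median width went from 27 to 321.5 kb in control 1, from 20 to 147 kb in control 2, from 26 to 246 kb in double loss 1 and from 29 to 289 kb in double loss 2. Regions of at least 100 kb were 4.89%, 1.39%, 3.12% and 4.10% of those before the rise and 81.0%, 64.2%, 79.5% and 75.8% of those after it. By the median, regions after the rise were less enriched than those before it. The median deposited log2 fold, LaminB1 over control library within a list, was lower after the rise in each list, at 0.35 against 0.50 in control 1, 0.38 against 0.56 in control 2, 0.28 against 0.47 in double loss 1 and 0.30 against 0.44 in double loss 2. Single wide regions went both ways. In control 1 the 1201 kb region had a log2 fold of 0.57 and the 1174 kb region 0.39. In double loss 1 the 1249 kb region had 0.61 and the 1309 kb region 0.40. The part of read density in the region widths was not tested.

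**Figure D2:**
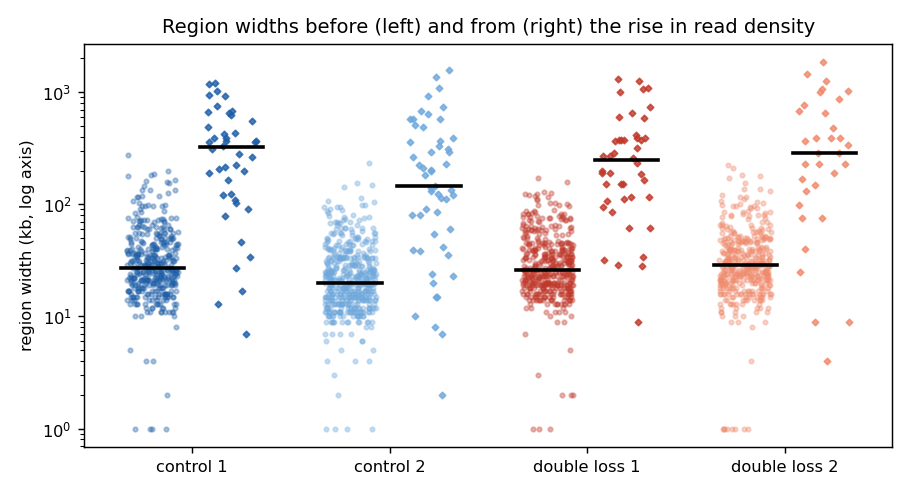
Width of each chromosome 10 region (kb, log axis) in the 4 lists, with regions before the rise in read density on the left of each pair (circles) and regions from it on the right (diamonds); black bars are medians. Medians lie between 20 and 29 kb on the left and between 147 and 321.5 kb on the right in every list.

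The lists also shared more sequence after the rise. Sequence called in all 4 lists made up 24.9% of what any list called before it and 78.0% from it on. The Jaccard index, shared over joint sequence, was 0.466 to 0.535 for the 6 pairs of lists before the rise and 0.827 to 0.928 from it on. Over the whole chromosome it was 0.716 between the controls, 0.672 between the double loss lists and 0.631 to 0.665 across groups. Matched region edges differed by a median of 5 to 7 kb in every pair, within and across groups alike. Only regions that overlapped exactly 1 region of the other list, and the reverse, were matched. These were 21.6% to 31.3% of a list, so regions that were split, joined or absent are left out.

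In 5 Mb windows, the covered share ran from nothing to nearly complete. Windows 7 (30 to 35 Mb) and 15 (70 to 75 Mb) held no region in any list, and windows 10 and 27 were covered under 1% in each. Window 22, at 105 to 110 Mb, with 2 protein-coding genes, was covered at 96.5% and 95.9% in the controls and 97.9% and 97.3% in double loss. The gene-dense window 21 beside it, with 76 genes, was covered at 12.5% to 13.3%. Kept sequence held 2.04 protein-coding genes per Mb and sequence in no list 6.93, against 5.49 for the chromosome. Across the 27 windows, Spearman's rho of gene number and covered share was -0.25 to -0.28 in the 4 lists, a description only, since windows of 1 list share a library. The 3 longest stretches in no list ran from 26458001 to 35668000, from 86163001 to 94119000 and from 67608001 to 75443000, between 7.84 and 9.21 Mb each.

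**Figure D3:**
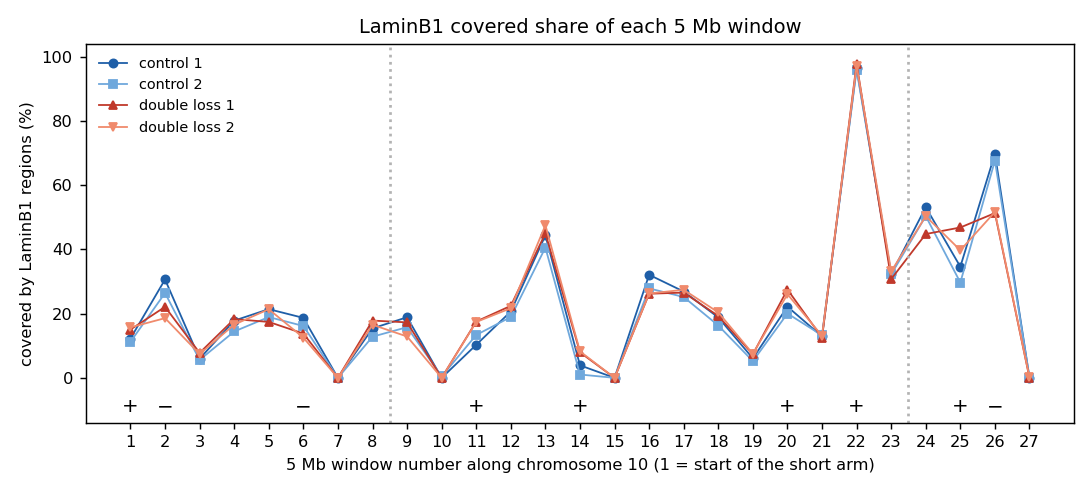
Share of each 5 Mb window of chromosome 10 inside LaminB1 regions (%), by window number, 1 line per library; dotted lines set off the short arm side and the distal long arm, and + and − mark windows past the limma threshold as higher or lower in double loss. The groups part most in windows 25 (higher in double loss) and 26 (lower).

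Of the 23 windows tested on chromosome 10, 6 were higher in double loss and 3 lower (limma on arcsine square root shares over 474 windows, adjusted p under 0.05). Over all windows tested, 33.3% were called higher and 11.6% lower. The higher windows on the chromosome were 1, 11, 14, 20, 22 and 25 and the lower ones 2, 6 and 26. On the chromosome these calls were 26.09% and 13.04% of the windows tested, near that background. Quantile-normalized shares turned the split to 1 higher and 4 lower. Without double loss 1 no window was called (limma, 1 at an unadjusted p under 0.05) and without double loss 2 none was (limma, 2 at an unadjusted p under 0.05). Leaving out control 1 left 3 higher and 1 lower, and leaving out control 2 left 2 and 2. With an equal number of regions per list, ranked by log2 fold, 0 of the 9 calls remained, and 1 did in the upper 50% of each list (limma, 4 and 5 windows at an unadjusted p under 0.05).

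The largest fall was in window 26 (125 to 130 Mb), which holds ADAM12, DOCK1 and MGMT. Its share was 69.8% in control 1, 67.7% in control 2, 51.3% in double loss 1 and 51.7% in double loss 2. Both double loss libraries were lower by more than the spread within either group, by 17.2 points on average (limma adjusted p = 0.000402). The adjusted p was 0.0733 without double loss 1 and 0.0788 without double loss 2, with differences of -17.0 and -17.4 points. Window 2 (5 to 10 Mb), with SFMBT2 and ITIH5, followed at 30.6% and 26.4% in the controls and 22.1% and 18.6% in double loss (limma adjusted p = 0.0154). Window 6, with GAD2, fell from 18.7% and 16.2% to 13.8% and 12.5% (limma adjusted p = 0.0458).

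The largest rise was next to it, in window 25 (120 to 125 Mb), which holds FGFR2 and ATE1. The share was 34.6% and 29.7% in the controls and 46.8% and 39.7% in double loss, so the groups did not overlap (difference 11.1 points, limma adjusted p = 0.0160). It was 8.67 points without control 2 (limma adjusted p = 0.131), 7.58 without double loss 1 (0.261) and 14.7 without double loss 2 (0.134). With an equal number of regions per list it turned to -8.92 points (limma adjusted p = 0.453). Window 14 (65 to 70 Mb), where CTNNA3 lies, rose from 3.90% and 1.04% to 7.96% and 8.24% (limma adjusted p = 0.00964). Window 11, where PRKG1 lies, rose from 10.3% and 13.4% to 17.5% and 17.4% (limma adjusted p = 0.0169). Window 20 rose from 22.18% and 20.04% to 27.52% and 26.06% (limma adjusted p = 0.0295). Windows 1 and 22 rose by 3.65 and 1.35 points (limma adjusted p = 0.0458 and 0.0493).

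Centred per library, LaminB1 read density in sequence called in all 4 lists moved the same way as covered share in windows 25 and 26. Windows 1, 2, 6, 11 and 20, called for covered share, were not called for density, and window 14 was not tested for it. On chromosome 10, 6 of 22 windows tested were higher and 1 lower (limma on log2 reads per kb centred per library, over 334 windows), beside 24.6% higher and 15.6% lower over all windows. In window 25 the LaminB1 reads per kb were 15.3 and 16.3 in the controls and 17.4 and 17.5 in double loss, higher by 0.08 ± 0.01 on the centred log2 scale (SE, limma adjusted p = 0.000746). In window 26 they were 16.3 and 17.2 in the controls and 16.7 and 16.8 in double loss, so before centring the groups overlapped. On the centred scale the difference was -0.06 ± 0.01 (SE, limma adjusted p = 0.00267). The other higher windows were 8, 13, 19, 22 and 23, by 0.04 to 0.08, and of these only window 22 was also called for covered share. For the control library, centred the same way, the log2 ratio of double loss over control was 0.02 in window 25 and -0.04 in window 26, 1 library per group and so with no replicate. Its part in the LaminB1 differences was not tested. Without double loss 1 a single density window was called, window 19, and windows 25 and 26 had limma adjusted p of 0.0690 and 0.0886. Merging regions at most 10 kb apart gave 1 higher and 2 lower, with 2 of the 7 calls kept, and the upper 50% of each list kept 1 of the 7.

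Base by base, 19.6 Mb of chromosome 10 was kept (in all 4 lists), 1.441 Mb gained (called in the 2 double loss libraries and in no control) and 2.054 Mb lost (the reverse). These were 47.1%, 3.46% and 4.94% of the sequence in any list, against 37.1%, 6.56% and 4.40% on the other chromosomes. The 4 pairings of 1 control with 1 double loss list, which follow no group, held 0.496 to 1.193 Mb each. Gained sequence was 1.21 times the largest of these pairings and lost sequence 1.72 times, with 539 kb of the lost sequence in 1 stretch. Leaving out 1 library, so that 1 list stands for a group, raised the gained sequence to between 2837 kb (without control 2) and 4258 kb (without double loss 2) and the lost sequence to between 3267 kb (without control 1) and 3961 kb (without double loss 2).

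Most changed stretches were short. Gained stretches had a median of 5 kb and only 3 of 179 reached 50 kb, all between FGFR2 and FAM24A in window 25. They ran from 121473001 to 121595000 (122 kb, over FGFR2), from 122850001 to 122925000 (75 kb, over FAM24B and FAM24A) and from 121771001 to 121839000 (68 kb, in ATE1). The next 2 were 42 kb from 20479001 and 36 kb from 95132001, both with no protein-coding gene. Lost stretches had a median of 6 kb, and 4 of 166 reached 50 kb. They ran from 125983001 to 126522000 (539 kb, over FANK1, ADAM12 and C10orf90), from 126954001 to 127054000 (100 kb, in DOCK1), from 126567001 to 126644000 (77 kb, in C10orf90) and from 110078001 to 110131000 (53 kb, in ADD3). The fifth, 39 kb from 7437001, held no protein-coding gene. The longest kept stretches lay at 128639001 to 129471000 (832 kb, reaching MGMT, an enzyme that repairs alkylated guanine), 115588001 to 116385000 (797 kb, ATRNL1, GFRA1 and CCDC172), 104644001 to 105377000 (733 kb, SORCS3), 105783001 to 106411000 (628 kb, no protein-coding gene) and 120240001 to 120845000 (605 kb, PLPP4).

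The longest lost block, over ADAM12, was the left end of a longer domain. The domain also lost 100 kb farther in, from 126954001 to 127054000. In control 1 the domain opened with a region from 125974001 to 126522000, with 15.1 LaminB1 and 10.1 control library reads per kb, and in control 2 with one from 125983001 to 126563000, with 15.6 and 10.2. In double loss 1 the first region of the domain started at 126644001, and in double loss 2 at 126683001. The far end was alike, at 129569000 in 3 lists and 129571000 in double loss 1. Left of the domain no list had a region from 123553001 to 125974000. These 2 control regions had a deposited log2 fold of 0.30 each, close to the medians of the distal long arm (0.30 and 0.29), while the regions under the longest kept stretch had 0.44 and 0.48.

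The gained sequence at FGFR2 adjoined a region of control 2 on its left and lay 40 kb from the nearest kept sequence on that side. Control 1 had a region ending at 121433000 and the next starting at 121614001, with FGFR2 between them. In control 2 the last region before the gene ended at 121473000. Double loss 1 had a region from 121450001 to 121601000 (15.8 LaminB1 and 13.4 control library reads per kb, log2 fold 0.17), and double loss 2 a region from 121113001 to 121595000 (16.6 and 13.4 reads per kb, log2 fold 0.23). The FGFR2 promoter (chr10:121598395-121598694) was inside the double loss 1 region and outside those of the other 3 lists. At ATE1 the double loss regions had a log2 fold of 0.06 and 0.09, and at FAM24B 0.17 and 0.13, beside medians of 0.45 and 0.43 over all chromosome 10 regions of these lists and 0.17 and 0.21 over those of the distal long arm.

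**Figure D4:**
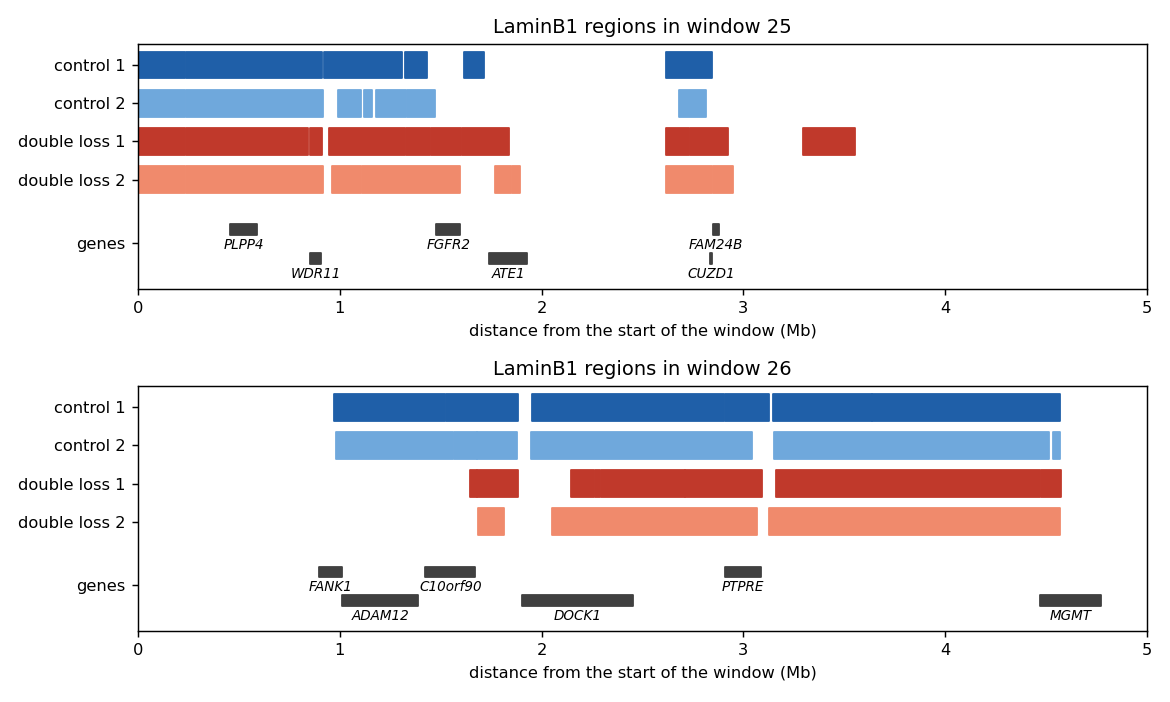
LaminB1 regions (coloured bars) of the 4 lists in windows 25 and 26, with selected genes below (grey bars); the x axis is the distance from the start of the window in Mb. Regions over FGFR2, ATE1 and FAM24B appear only in the double loss lists, and the left end of the domain in window 26, over ADAM12, only in the control lists.

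In 100 kb bins, the lost block was the only place on the chromosome that passed the test. Of 557 bins on chromosome 10, 6 were called lower, all adjoining from 126000001 to 126600000, with a mean share of 99.3% in each control and 0% in each double loss list (limma adjusted p = 0.0456 for each). No bin was called higher (limma), and 65 of the 557 bins had an unadjusted p under 0.05 in either direction. Over all 12153 bins, 0.642% were called higher and 0.296% lower. The 6 bins had next to no spread within either group, so their limma p-values rest on variance estimated over all bins tested. None of the 6 was called with untransformed or quantile-normalized shares, with no filter, with the replicate block, in the upper 50% of each list or with an equal number of regions (limma, between 38 and 69 bins at an unadjusted p under 0.05). Leaving out 1 library changed these counts: without control 1 there were 13 higher and 0 lower, without control 2 there were 10 and 0, without double loss 1 there were 40 and 13, and without double loss 2 there were 41 and 23.

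Most genes of the chromosome lay outside the regions, as on the other chromosomes. Of 734 protein-coding genes, 127 (17.3%) were covered in part in some list. At 50% or more in all 4 lists were 41 (5.59%), and 13 (1.77%) were covered fully in all 4. On the other chromosomes these shares were 15.2%, 4.23% and 1.10%. Coverage went with gene length: 24 of 40 genes over 300 kb were covered in some list and 10 of them at 50% or more in all 4, against 14 and 6 of 142 genes under 10 kb. Of the 127 genes tested, 4 were called higher in double loss, FGFR2, ATE1, FAM24B and FAM24A, and 1 lower, ADAM12 (limma over 3057 gene bodies, adjusted p under 0.05). Over all genes tested, 1.67% were called higher and 0.981% lower. Both double loss values were above both controls in 24 genes (18.9%) and below both in 25 (19.7%), where over all genes tested these shares were 21.5% and 13.8%.

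FGFR2, a receptor tyrosine kinase for fibroblast growth factors at chr10:121478330-121598458, was covered at 0% in both controls and at 100% and 97.1% in double loss (limma adjusted p = 0.0392). ATE1, which adds arginine to the N termini of proteins, at chr10:121740424-121928463, was at 0% in both controls and at 52.4% and 61.7% in double loss (limma adjusted p = 0.0403). FAM24B (chr10:122849078-122879641) was at 0% in both controls and at 100% and 97.0% in double loss (limma adjusted p = 0.0403), and its neighbour FAM24A (chr10:122910610-122913111) was at 0% and 100% without spread (limma adjusted p = 0.0142). All 4 lie in window 25, where neighbouring genes share regions, so they are not separate observations. ADAM12, a membrane metalloprotease at chr10:126012391-126388477, was covered fully in both controls and not at all in double loss (0%, limma adjusted p = 0.0142). With no spread in either group, the limma p-values of FAM24A and ADAM12 rest on variance estimated over all genes tested.

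Of these 5 calls, FGFR2, ATE1 and FAM24B lost theirs without control 1 (limma adjusted p = 0.120, 0.122 and 0.123) and without control 2 (0.128, 0.122 and 0.130), at unchanged coverage differences. In the upper 50% of each list by log2 fold, no list covered any of the 5. With the replicate block, with 10 kb added on each side and with an equal number of regions per list, 0 of the 5 calls remained (limma, 15, 22 and 8 genes at an unadjusted p under 0.05). Leaving out 1 library brought in other calls, to between 4 and 13 higher and between 5 and 10 lower, with the most higher without double loss 2 and the most lower without control 2.

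Other genes had wide gaps between the groups without passing the test. C10orf90 was covered at 98.4% in both controls and at 10.9% and 0% in double loss (limma adjusted p = 0.104). FANK1, next to ADAM12, was at 31.5% and 23.5% in the controls and 0% in double loss (limma adjusted p = 0.0811). SFMBT2, a Polycomb group protein gene on the short arm, was at 88.3% and 82.0% in the controls and 30.1% and 35.7% in double loss (limma adjusted p = 0.118). GAD2, which makes the transmitter GABA from glutamate, was at 91.4% and 85.3% in the controls and 29.1% and 11.3% in double loss (limma adjusted p = 0.145). ADD3, a gene of the membrane skeleton protein adducin, was at 93.8% and 95.3% against 58.6% and 53.6% (limma adjusted p = 0.0743). ITIH5, RGR, HSPA12A and LOC124902436 also had both double loss values below both controls.

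In the higher direction, LRRTM3, a synaptic adhesion gene that lies inside an intron of CTNNA3, was at 0% in both controls and at 38.2% and 28.5% in double loss (limma adjusted p = 0.0748). CTNNA3, which encodes alpha-T-catenin, was at 10.5% and 2.81% in the controls and 21.3% and 21.5% in double loss (limma adjusted p = 0.382). ENTPD1, an enzyme that breaks down extracellular ATP, was at 12.6% and 0% against 49.2% and 46.0% (limma adjusted p = 0.296). AKR1E2, AKR1C1, AKR1C8, CUZD1 and XPNPEP1 likewise had both double loss values above both controls. The AKR1C genes are near copies of each other, so reads may be split among them and their values are uncertain.

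**Figure D5:**
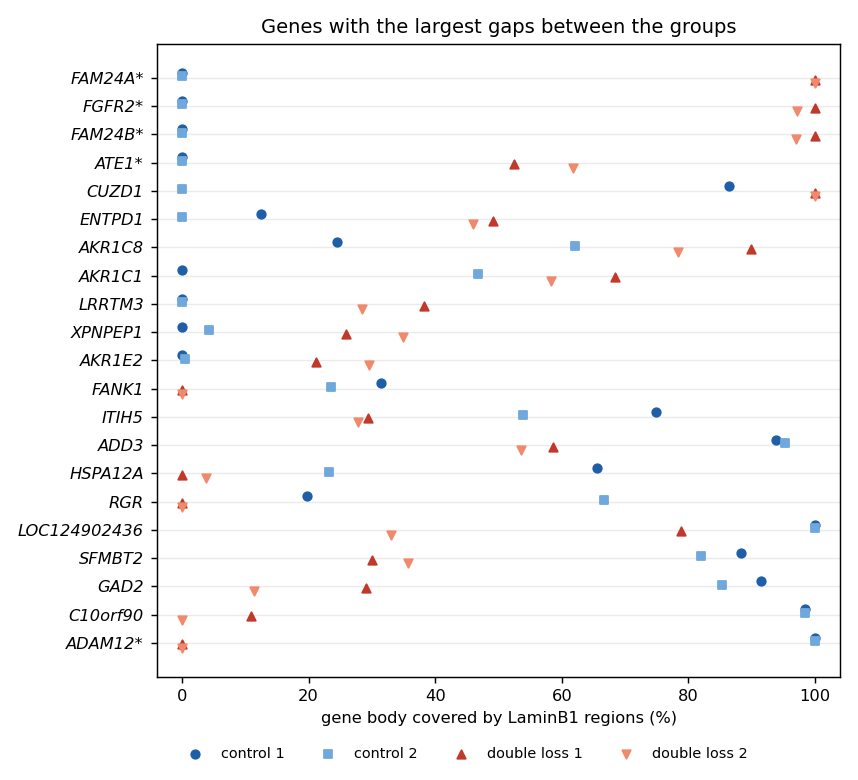
Share of the gene body inside LaminB1 regions (%) in each of the 4 libraries, for every called gene and, among genes 10 kb or longer, the 10 widest gaps in each direction; an asterisk marks a gene past the limma threshold. FAM24A, FGFR2, FAM24B and ATE1 have both double loss points above 50 and both control points at 0, and ADAM12 has the reverse.

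The long neuronal and adhesion genes are read beside all chromosome 10 genes over 300 kb, since coverage went with gene length. Their median length was 403 kb, so members of the list are themselves counted among the genes over 300 kb. Of the 40 chromosome 10 genes over 300 kb, 24 (60%) were covered in some list and 10 (25%) at 50% or more in all 4. Of 31 members, 17 were covered in some list and 6 at 50% or more in all 4: SORCS1 and SORCS3, sorting receptors of the sortilin family, at 97.4% to 100%, ATRNL1, GFRA1, a receptor subunit for the growth factor GDNF, LRMDA, and ANK3, the ankyrin of the axon initial segment. None of the 31 passed the test in either direction, and 2 had an unadjusted p under 0.05 (limma). Both double loss values were above both controls in 8 of the 17 covered members and below both in 2. Among the covered genes of the chromosome, of any length, these shares were 18.9% and 19.7%. The median difference of the covered members was 0.82 points, beside 0 over the covered genes of the chromosome and 0.78 over those of the genome. PRKG1, the cGMP-dependent protein kinase gene, was at 37.8% and 51.1% in the controls and 61.6% and 62.8% in double loss (limma adjusted p = 0.550). PCDH15, a very long cadherin gene of hair cells, was covered in no list.

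Of 18 detoxication genes, 9 were covered in some list, 3 of them at 50% or more in all 4: CYP2C8, CYP2C18 and CYP2C19, neighbouring cytochrome P450 genes of drug metabolism. None passed the test and 1 had an unadjusted p under 0.05 (limma), with both double loss values above both controls in 4 and below in 0, beside the same 18.9% and 19.7%. The median difference of the covered members was 23.5 points, with no test, beside 0 over the covered genes of the chromosome and 0.78 over those of the genome. That median is the value of AKR1C2, at 39.7% and 0% in the controls and 86.8% and 0% in double loss, where the groups overlapped. The AKR1C members lie side by side and, as near copies, have uncertain values.

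The remaining lists varied in how many members were covered. Of 24 homeobox and other developmental transcription factor genes, 4 were covered in some list. FOXI2 was covered fully in all 4, EMX2 at 100% in 3 lists and 52.1% in double loss 2, and GATA3 and PTF1A in 2 lists each. Of 9 lipase genes, PNLIP, PNLIPRP1 and PNLIPRP3 were covered fully in 3 lists and at 0% in double loss 1, which alone lacked a region there, so this follows a library and not a group. Of 15 zinc finger genes 6 were covered, with 0 above both controls and 2 below (18.9% and 19.7% over covered genes of the chromosome). Of 32 ribosomal, RNA processing and other housekeeping genes 2 were covered, GOT1 and XPNPEP1. The 4 surfactant and collectin genes and the 5 interferon-induced IFIT genes lay outside all regions. None of the members of these 5 lists and of the lipase list passed the test (limma), and 1 of them, in the housekeeping list, had an unadjusted p under 0.05. A mixed list of 25 metalloprotease, receptor, ligand and other genes held the called genes FGFR2 and ADAM12, with 10 members covered, and WDR11 and PTPRE in it stayed at 76.6% or more in all lists. MKI67, the gene of a protein that coats mitotic chromosomes, was at 98.6% in control 1 and 0% in the other 3 lists.

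The regions with the most reads per kb were not in wide domains but were 1 to 5 kb long and lay between 38525001 and 41266000, around the centromere. The region from 41125001 to 41126000 held 139 and 137 LaminB1 reads in the controls and 159 and 153 in double loss. Control library reads there were 84 in each control list and 105 in each double loss list. Leaving out windows 8 and 9, an alternative chosen after seeing the data, left the difference of the chromosome's covered share at 0.33 points.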

How the data were processed

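Per the labels' protocols, the LaminB1 CUT&RUN libraries were read from both ends at 75 bp. The submitters' processing notes name Bowtie2 2.3.4.3, Picard and hg38. Which caller made the regions is not given in the sources used here. The deposited lists give, per region on a 1 kb grid, whole-number counts of LaminB1 and control library reads, not normalized, per the file headers. They also hold, for each region, a p-value with its adjusted form (none above 0.05), a log2 fold and a score made from it by the authors, deposited per the file headers. Tested on the values, the log2 fold is log2 of the count ratio minus 1 constant per list (0.27, 0.32, 0.07 and 0.08), so it was read within a list only. Regions of equal edges had equal control counts in 15 of 15 cases within groups and 0 of 31 across groups on chromosome 10: each group had 1 control library of its own. Library totals are not in the lists, so depth is known only as reads inside regions, 420425 to 451534 LaminB1 reads per list on chromosome 10. Intervals for counting error were not used.

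Regions were turned into coverage of 1 kb steps. Covered shares of 5 Mb windows (at least 1% covered in 1 library), 100 kb bins (at least 5%) and RefSeq protein-coding gene bodies (GRCh38.p14; any cover) were arcsine square root transformed and fitted with limma 3.58.1 (trended variance, R 4.3.3) over chromosomes 1 to 22 and X, with Benjamini-Hochberg adjustment over all of them and a threshold of 0.05. LaminB1 density was log2 reads per kb over sequence called in all 4 lists (at least 100 kb per window), where each kb takes the mean of its region, with edgeR 4.0.16 as an alternative. Single values were compared by exact permutation over libraries. The fits were run on simulated data with less noise than the libraries show and large added shifts. That setting was chosen so that the shifts could be found, so it cannot show power or error at the real spread. Regions were assigned to parts by their midpoint. The rise in read density was placed from the lists. Same-numbered libraries did not deviate together (r = -0.00474 over 12153 bins), so replicate numbers were not used as pairs. Lists were matched to samples by genotype, antibody and replicate number in their names. No IgG library was used as a sample.

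Named genes come from a rule: every called gene on chromosome 10, the 8 longest, 3 members per list by difference of means, and, among genes 10 kb or longer, the 10 widest gaps between groups per direction; stretches named are the 5 longest of each kind. A gene that the rule names is not reported here. Further genes named in the gene lists, and windows and sequences shown, were picked after their values were seen. The members, gene lists and tests were chosen with earlier results of these data known.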

Additional observations from a re-analysis of the deposited data

How the results depend on the processing

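The sign of the distal long arm difference, of its difference from the rest, of the middle part, of the median width and of LaminB1 reads per kb was the same under every alternative run for them, except that the median widths were equal without control 2. The sizes varied: the middle part ran from 0.85 to 2.16 points when 1 library was left out and was 0.03 (exact permutation p = 1) with the upper 50% by log2 fold, and the distal long arm ran from -4.05 to -1.43 and was -11.9 with an equal number of regions. None of these single values could pass a threshold with 2 libraries a group. The covered share of chromosome 10, double loss minus control, turned to -0.41 points with regions at an adjusted p under 0.001, to -0.64 with only the upper 50% by log2 fold, to -1.52 with an equal number of regions, and ran from -0.52 to 1.20 points when 1 library was left out. On the short arm side it ran from -1.46 to 0.62 points when 1 library was left out. The number of regions, double loss minus control, ran from -84.5 to 19.5.

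Stricter lists changed most. Keeping the upper 50% of each list by log2 fold, kept, gained and lost sequence came to 4013, 842 and 1219 kb, and the mean Jaccard index to 0.496 within and 0.433 across groups. Median edge shifts were then 6.75 and 9.25 kb, and control library ratios after over before the rise 1.57 and 1.58. That setting called 1 window higher and 0 lower, 0 bins lower, 1 gene higher and 4 lower, and 1 density window higher and 0 lower. With an equal number of regions the Jaccard indices were 0.583 and 0.553, the shift within groups 6.75 kb and the ratios 1.49 in both groups. It called 0 windows in either direction, 0 bins lower, 0 genes higher, and 3 density windows higher and 0 lower. Under these 2 settings, 4 to 52 windows or bins still had an unadjusted p under 0.05 in limma. Windows 22, 25 and 20 turned to -3.13 (upper 50%), -8.92 and -0.16 points (equal number), and the density of window 22 to -0.015 (upper 50%). Genes not past the test also turned: ATRNL1 to -21.2 points with the upper 50%, and GOT1 to -38.7 and CUZD1 to -43.2 points with an equal number.

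With an adjusted p under 0.001 there were 3 windows higher and 4 genes lower, and the ratios were 1.49 in both groups. Merging regions at most 10 kb apart gave shifts of 8.50 and 9.25 kb, an across-group Jaccard index of 0.677, ratios of 1.55 in both groups, 4 bins higher and 11 lower, and 1 density window higher and 2 lower. Leaving out regions under 10 kb gave a within-group shift of 7 kb and ratios of 1.48 in both groups. With 50% reciprocal overlap, kept, gained and lost regions came to 11476, 2241 and 1219 kb.

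Window and bin size mattered. With 10 Mb windows, 3 were higher and 0 lower (limma), and 3 density windows were higher. With 2 Mb windows 2 density windows were lower. Bins of 50 kb gave 6 higher and 16 lower and bins of 250 kb gave 2 higher. Untransformed shares, quantile-normalized shares and no filter each left 0 bins lower (limma, with 65, 69 and 65 at an unadjusted p under 0.05). Quantile-normalized shares called 1 window and 2 genes higher. Gene bodies with 10 kb on each side gave 0 calls in either direction (limma, 22 at an unadjusted p under 0.05). For density, a minimum of 500 kb gave 2 lower, centring on the total 2 lower and edgeR 3 lower.

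When 1 library was left out, windows called ran from 0 to 3 higher and 0 to 2 lower, bins from 10 to 41 and 0 to 23, genes from 4 to 13 and 5 to 10, and density windows from 1 to 5 and 0 to 3. Gained sequence ran from 2837 to 4258 kb and lost sequence from 3267 to 3961 kb. Among genes not past the test, PTF1A ran from -67.8 to 32.2 points (turning without control 1 and without double loss 1), GOT1 from -38.7 to 50.6 (turning without control 2 and without double loss 1) and ATRNL1 from -0.29 to 0.64 (turning without double loss 2).

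Same-numbered libraries had a correlation of 0.10 over the 557 chromosome 10 bins. With the replicate number as a block, limma called 0 bins and 0 genes in either direction (53 and 15 at an unadjusted p under 0.05) and 7 density windows higher and 2 lower. The block left 7 of the 9 window calls. A promoter-only gene share was not run.

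Precision was limited by 2 libraries per group, by 1 control library per group, and by the lists holding no reads outside called regions.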
